A study of Rattus norvegicus with 32 samples.

Results

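The late day 2 transition of the rat estrous cycle was examined here as a comparison of 11 of the 32 mammary gland arrays of the series. Its 5 rats were killed at 41.6, 43, 57, 58 and 59.8 h after midnight of the first cycle day, and they were set against the 6 rats of earlier day 2, killed at 31.6, 32.8 and 34.5 h and then at 35.5, 37.1 and 38.3 h. The members were taken by the hour in the sample titles, with earlier results of these data known, so the choice of hours was not blind to the values. Estrus fell on day 2 in the study, so the transition rats cover the end of the day of estrus and the first hours sampled on the next day. All rats of both groups were adult virgin Sprague Dawley females with regular cycles of 4 days, carried no transgene and received no treatment. Each array measured total RNA of 1 rat and no hour had a second rat, so the hours of a group stand in for replicates and every p-value below measures the spread between rats together with any effect of hour within a group. The remaining arrays are 8 of day 1 (7 to 17.6 h), 5 of later day 3 (61.3 to 67.1 h), 7 of day 4 (79.3 to 88.1 h) and the array of 40 h, which entered no fit. The authors discarded that array because its data looked faulty. By the sample labels the RNA came from the fourth glands held in RNA Later and was extracted on a column, whereas the methods name frozen glands of the left chain and TriZol before the column. Which was used was not settled here.

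The estrous cycle exposes the gland to rising estrogen before estrus and to progesterone after ovulation. Hormone-sensing luminal cells carry the receptors of both hormones, and the progesterone receptor gene is itself a textbook target of the estrogen receptor. Progesterone acts on neighbouring cells through secreted factors, and ducts show a wave of cell division in the luteal part of each cycle. Around the luminal cells lies a layer of myoepithelial cells, which contract with smooth muscle actin and myosin and carry basal keratins. The circadian clock runs in the gland as in other organs, so transcripts that follow the hour of the day have to be told apart from those that follow the cycle.

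The arrays read transcripts with probe sets, groups of short oligonucleotides, and the values are intensities on a linear scale. Array medians lay between 49.9 and 54.7 on all 32 arrays. A probe set was kept if it reached an intensity of 10 on all 31 arrays other than 40 h, which 21068 of 31099 did. Differences are given on the log2 scale as transition minus earlier day 2, from a limma fit with 5 group means over the 31 arrays, with Benjamini-Hochberg adjustment over the 21068 probe sets. The median difference over all probe sets was 0.02. Markers of mammary epithelium were present in every rat of both groups. Csn1s1, which encodes a casein, lay between 22652 and 30402 in the transition rats and between 18880 and 29512 in the earlier rats, and Krt8, a luminal keratin, between 2227 and 3391 in the transition rats and between 1712 and 2597 in the earlier rats.

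One rat stood apart from its group. The rat of 37.1 h, labelled earlier day 2, lay nearer to the transition mean than to the mean of its own group for 22 of the 26 probe sets that were lower in the transition, while the other 5 earlier rats did so for 0 or 1 of them. For the 9 probe sets that were higher in the transition it lay on the side of earlier day 2 every time. It also had the highest mitosis score of the 6 earlier rats, 1.37 above the mean of the 31 rats on the log2 scale, against -1.19 to 0.27 in the other 5. Every result below includes this rat, and values without it are given beside calls of named genes and lists that it changes. The rat was singled out from these same data, so the values without it are no separate test. The discarded array of 40 h lay on the side of earlier day 2 for all 35 probe sets, which is given as a reading of that array and not of its hour.

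Between both groups 9 probe sets passed as higher in the transition and 26 as lower (adjusted p under 0.05, limma), which is 0.0427% and 0.123% of the 21068 tested. The higher ones represent 9 genes and the lower ones 18, and the other 8 lower probe sets carry no symbol. The 9 higher probe sets differed by 0.47 to 3.19 and the 26 lower ones by 0.51 to 2.61 on the log2 scale, with medians of 0.77 and -1.48. Over all probe sets, 704 were higher and 601 lower at an unadjusted p under 0.05. Of the 35, 6 higher and 15 lower probe sets had no overlap between the 5 transition rats and the 6 earlier rats. Over the whole array such a gap occurred for 66 probe sets above, 0.313% of those tested, and for 68 below, 0.323%. At 41.6 and 43 h (mean of 2 rats) all 35 lay on the transition side of the midpoint of both group means. They did so at 57 to 59.8 h too (mean of 3 rats). The same rats made the calls and set the midpoint, so this describes the calls and is no test of them.

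These counts moved with single rats. Without the rat of 37.1 h they were 20 higher and 45 lower, and all 35 probe sets were among them. Omission of the 31.6 h rat left 4 higher and 14 lower, that of 57 h 2 and 17. With the 38.3 h rat omitted 17 were higher. The lower count became 15 on omission of 34.5, 41.6 or 58 h and 17 on that of 35.5 h. A call held whichever single rat was left out for 15 of the 35 probe sets. These were Csap1 and Actg2 among the higher ones, and Pgr, Il18, Akr1c15, Clca4l, Aadat, Mgp and 7 probe sets without a symbol among the lower ones. Removal of the rat of 31.6 h or of 57 h ended 17 calls each. When the fit held the 11 arrays alone, no probe set passed (lowest adjusted p = 0.067 in limma), although 688 were higher and 643 lower at an unadjusted p under 0.05 and all 35 kept their direction and an unadjusted p under 0.05.

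**Figure D1:**
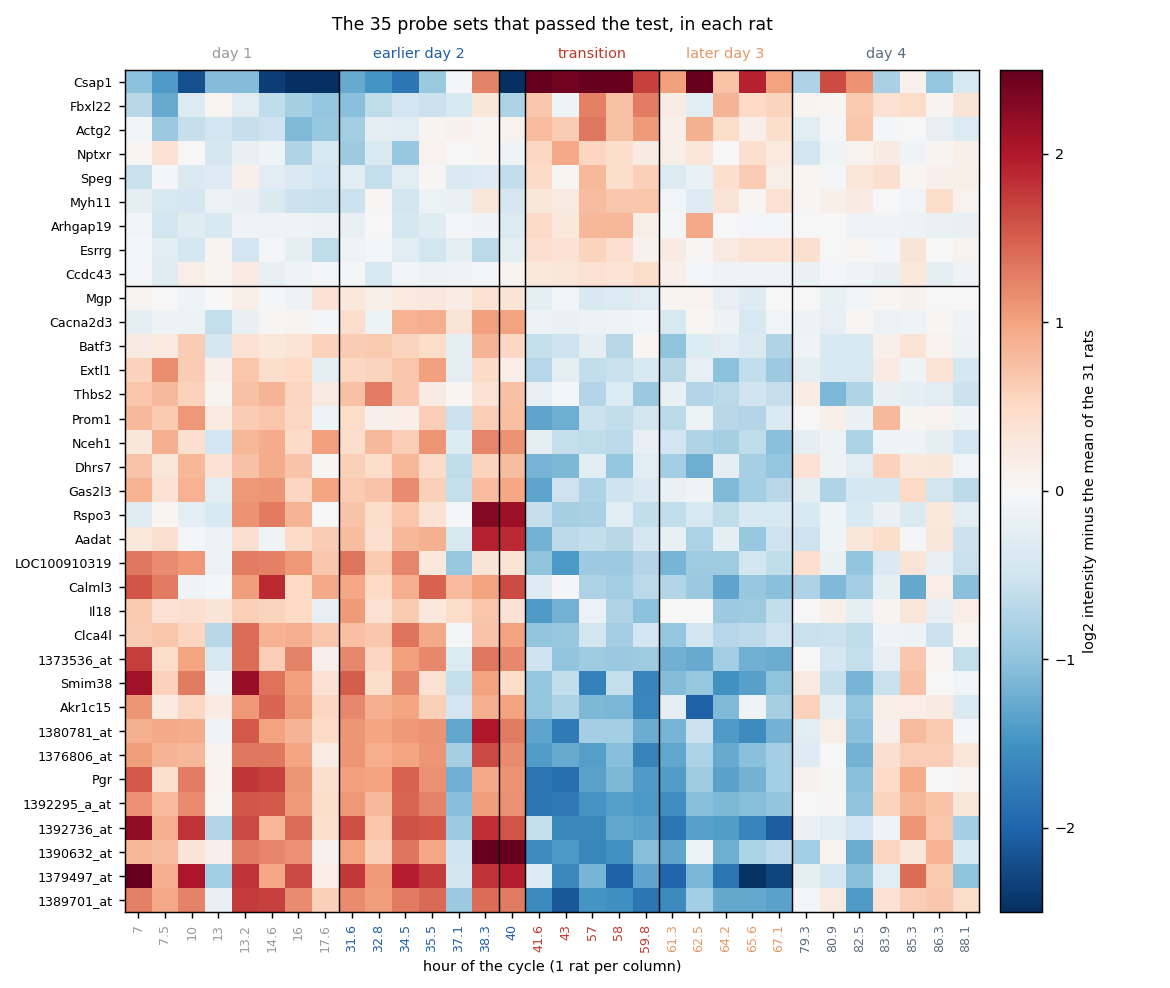
Log2 intensity of the 35 probe sets (rows, ordered by their difference) in each of the 32 rats (columns, by hour), as the deviation from the mean of the 31 rats other than 40 h. Of the 26 lower probe sets, 25 or 26 lie on the transition side in each transition rat, whose values also made the calls. The count is 22 in the rat of 37.1 h and 22 to 26 in the later day 3 rats.

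Progesterone receptor (Pgr), the nuclear receptor through which progesterone acts, fell. Its intensity was 35.3, 34.0, 49.4, 57.3 and 46.6 in the transition rats of 41.6, 43, 57, 58 and 59.8 h. In the earlier rats of 31.6 to 38.3 h it was 255, 252, 347, 276, 54.3 and 241. The single value that reaches into the transition range is the rat of 37.1 h. Means were 44.5 ± 9.84 (SD, n = 5) and 237 ± 97.5 (SD, n = 6), a difference of -2.25 (standard error 0.37, adjusted p = 0.00292 in limma). Without the rat of 37.1 h the difference was -2.64 (adjusted p = 5.27e-06).

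The hormone-sensing genes of the luminal layer lay lower together, though only Pgr passed the test. Of the 10 genes listed, 6 passed the intensity filter. All 6 differences were negative, as were 4792 of all 11211 genes. Their median was -1.70, against 0.02 over all genes. An unadjusted p under 0.05 in that direction was reached by 5 of the 6 and by 304 of all genes. Greb1, a co-factor and target of the estrogen receptor, read 21.5, 26.4, 26.8, 17.6 and 30.3 in the transition rats and 150, 103, 180, 154, 21.1 and 84.6 in the earlier rats (difference -1.99, standard error 0.47, adjusted p = 0.083 in limma). Again the rat of 37.1 h is the one that overlaps. Amphiregulin (Areg), the EGF receptor ligand that in mouse relays the estrogen signal in ducts, read 149, 487, 335, 766 and 266 in the transition rats against 2914, 718, 2341, 1702, 1193 and 4240 in the earlier rats (difference -2.43, adjusted p = 0.116 in limma). Stc2, a secreted glycoprotein induced by estrogen, read between 24 and 42.5 in the transition rats and between 22.1 and 131 in the earlier rats (difference -1.41, adjusted p = 0.163). The prolactin receptor gene Prlr (-0.34, adjusted p = 0.712) and the transcription factor gene Xbp1 (-0.18, adjusted p = 0.946) had the smallest differences of the 6. Without the rat of 37.1 h, 3 of the 6 passed, namely Pgr, Greb1 (-2.43, adjusted p = 0.00197 in limma) and Stc2 (-1.78, adjusted p = 0.00252), and the list median was -2.10. In whole-gland RNA, fewer cells of a type and less RNA per cell cannot be told apart.

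Among genes of signalling and the matrix, Il18 had the smallest adjusted p of the named genes. Interleukin 18, a cytokine of the interleukin 1 family, read 255, 297, 614, 400 and 334 in the transition rats and 1409, 885, 1066, 809, 931 and 1099 in the earlier rats. All transition rats lay below all earlier rats, here including the rat of 37.1 h. The difference was -1.49 (standard error 0.20, adjusted p = 0.000399 in limma), and -1.51 without that rat. Rspo3 encodes an R-spondin, a secreted protein that strengthens Wnt signalling. It read 13.2, 11, 11.2, 16.2 and 12.9 in the transition rats, close to the filter's minimum, and 32.1, 27.1, 32, 25.1, 19.3 and 96.8 in the earlier rats (difference -1.37, standard error 0.30, adjusted p = 0.046). The groups did not overlap, but the call ended on removal of any of 23 of the 31 rats, with an adjusted p of up to 0.157. Thbs2, thrombospondin 2, an extracellular matrix protein that restrains vessel growth, averaged 129 ± 32.3 in the transition rats and 262 ± 85.8 in the earlier rats (SD, n = 5 and 6, difference -1.0, adjusted p = 0.0317). Its highest transition value was 169 and its lowest earlier value 177. Mgp, matrix Gla protein, an inhibitor of calcification, read between 4948 and 6180 in the transition rats and between 7137 and 8385 in the earlier rats, with no overlap (difference -0.51, standard error 0.09, adjusted p = 0.00483).

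Enzyme genes made up another set of the lower calls. Akr1c15, an aldo-keto reductase, read 319, 360, 286, 281 and 201 in the transition rats and 1436, 1156, 1231, 936, 448 and 1159 in the earlier rats (difference -1.81, standard error 0.31, adjusted p = 0.005 in limma). Even the rat of 37.1 h, the lowest of the earlier rats, stayed above the highest transition rat. Aadat, an aminotransferase of the kynurenine and lysine pathways, read 527, 765, 777, 744 and 901 in the transition rats against 2050, 1601, 2137, 2222, 911 and 4570 in the earlier rats (difference -1.45, standard error 0.26, adjusted p = 0.00654). The rat of 38.3 h was the highest of the earlier rats, as it was for Rspo3 (96.8) and for the probe set 1390632_at without a symbol (770). Dhrs7, a short-chain dehydrogenase/reductase, averaged 2311 ± 729 in the transition rats and 5129 ± 1427 in the earlier rats (difference -1.14, adjusted p = 0.0179). Nceh1, a hydrolase of cholesterol esters, averaged 116 ± 18.9 in the transition rats and 262 ± 88.7 in the earlier rats (difference -1.11, adjusted p = 0.0302). Extl1, a glycosyltransferase of heparan sulfate synthesis, passed with the dimmer of its 2 probe sets (-1.0, adjusted p = 0.0218), while the brighter one gave -1.30 with an adjusted p of 0.0561. The brighter one passed too without the rat of 37.1 h (-1.44, adjusted p = 0.0157).

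The remaining lower genes belong to varied classes. Prom1, prominin 1, a membrane protein that in mouse marks hormone-sensing luminal cells, read 259, 277, 445, 422 and 467 in the transition rats and 883, 701, 724, 990, 443 and 982 in the earlier rats (difference -1.07, standard error 0.21, adjusted p = 0.0186 in limma). The rat of 37.1 h lay inside the transition range. Calml3, an epithelial relative of calmodulin, read between 170 and 304 in the transition rats and between 443 and 870 in the earlier rats, with no overlap (difference -1.48, adjusted p = 0.0169). Clca4l, of the family of regulators of calcium-activated chloride channels, read 31.6 to 45.3 in the transition rats and 61.6 to 160 in the earlier rats (difference -1.49, adjusted p = 0.0026). Smim38, which encodes a small integral membrane protein, averaged 57.0 ± 19.8 in the transition rats and 203 ± 91.2 in the earlier rats (difference -1.76, adjusted p = 0.0329). Gas2l3, a protein that links actin and microtubules, had a difference of -1.25 with an adjusted p of 0.0433, and its call ended on removal of any of 19 rats (adjusted p up to 0.188). LOC100910319 fell as well (-1.47, adjusted p = 0.0246), with dim values of 10.2 to 16.6 in the transition rats and 14.3 to 68.9 in the earlier rats. Batf3 (-0.88, adjusted p = 0.0329), a transcription factor of dendritic cells in mouse, and Cacna2d3 (-0.69, adjusted p = 0.0289), a calcium channel subunit, complete the 18. Batf3, Cacna2d3, Mgp, Extl1 and, among the higher genes, Ccdc43 are outside the rule for named genes and were named after their values were seen.

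Of the 8 lower probe sets without a symbol, 5 differed by more than Pgr. The probe set 1389701_at read 31.4, 21.8, 33.9, 32.6 and 27.2 in the transition rats and 214, 196, 234, 251, 49.9 and 248 in the earlier rats (difference -2.61, standard error 0.36, adjusted p = 0.000676 in limma). The probe set 1392295_a_at read between 223 and 306 in the transition rats and between 377 and 2165 in the earlier rats (difference -2.34, adjusted p = 0.000678), and the rat of 37.1 h gave the 377. For both, the groups did not overlap, and as for Pgr the rat of 37.1 h was the lowest of the earlier rats. No gene is paired with these probe sets in the annotation used.

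**Figure D2:**
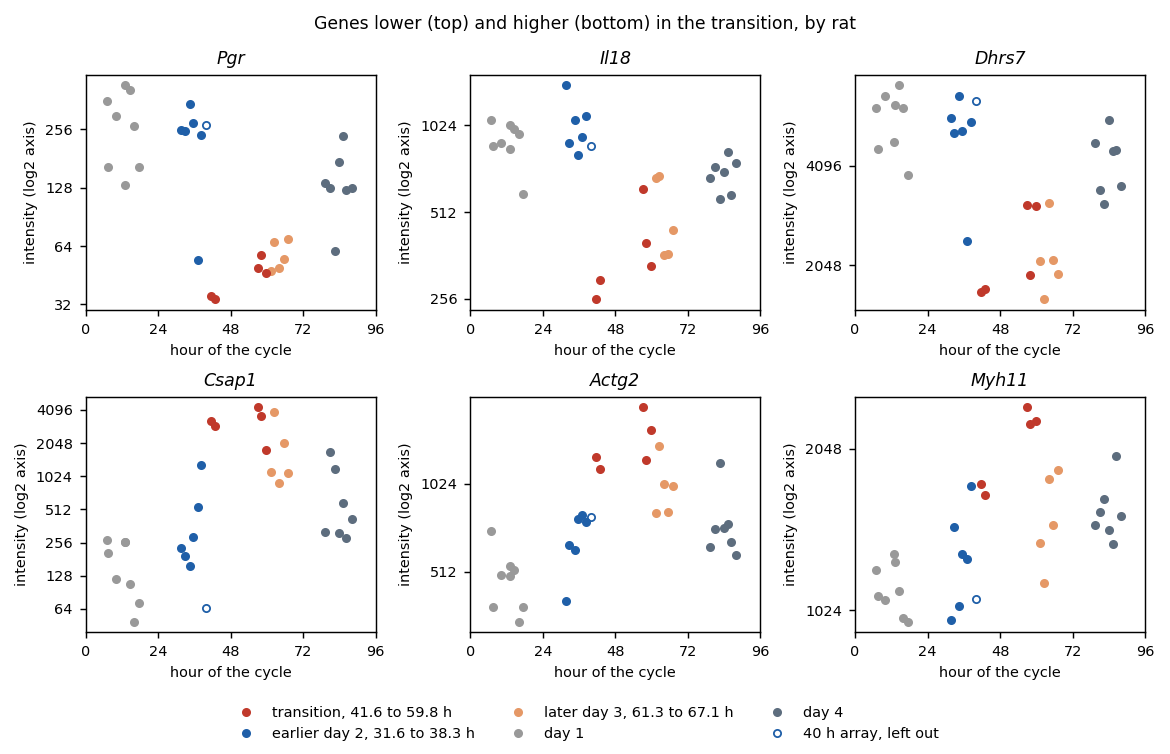
Intensity on a log2 axis against hour of the cycle for 3 genes that were lower and 3 that were higher in the transition, where each point is 1 rat. Pgr, Il18 and Dhrs7 lie low in the transition rats and higher in most day 4 rats, with the rat of 37.1 h low for Pgr (54.3) and not for Il18 (931), and Csap1, Actg2 and Myh11 have their highest values of all rats at 57 h (4313, 1864 and 2446).

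Csap1, the gene of common salivary protein 1, a secreted protein known from rat salivary glands, had the largest difference of all calls. It read 3271, 2916, 4313, 3601 and 1775 in the transition rats and 228, 195, 156, 286, 533 and 1289 in the earlier rats. The groups did not overlap, and the 2 latest earlier rats were the highest of theirs. Means were 3175 ± 937 (SD, n = 5) and 448 ± 433 (SD, n = 6), a difference of 3.19 (standard error 0.53, adjusted p = 0.00411 in limma). Csap1 was the single call that the clock check set aside, because its intensity changed with hour on days 1 and 4 (unadjusted p = 0.0257). On those days it decreased by 1.48 on the log2 scale over 10 h. Of the transition rats, the 2 killed later in the day than any earlier rat had 3271 and 2916. Without Csap1, 8 higher probe sets remained, 0.038% of those tested. None of the 26 lower ones was set aside, so that count stayed at 0.123%. The check is a linear slope over clock hours of up to 17.6, whereas the transition rats reach 19. With clock hour as a covariate in the main fit, 28 of the 35 calls were kept and all 35 kept their direction. Il17b, an interleukin 17 family cytokine gene, read 125, 201, 418, 384 and 526 in the transition rats and between 68.9 and 211 in the earlier rats and did not pass (difference 1.63, adjusted p = 0.109).

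Among the higher calls were 2 smooth muscle genes, Actg2 and Myh11, and 2 other genes of muscle proteins, Speg and Fbxl22. Actg2, gamma smooth muscle actin, read 1263, 1152, 1864, 1232 and 1558 in the transition rats and 405, 630, 608, 774, 802 and 759 in the earlier rats (difference 1.11, standard error 0.19, adjusted p = 0.00654 in limma). No earlier rat reached the lowest transition rat. Myh11, the smooth muscle myosin heavy chain, read 1758, 1683, 2446, 2277 and 2307 in the transition rats and 984, 1462, 1045, 1305, 1274 and 1749 in the earlier rats (difference 0.70, standard error 0.14, adjusted p = 0.0215). Here the rat of 38.3 h reached into the transition range, and the second, dimmer probe set gave 0.53 with an adjusted p of 0.636. Speg, a protein of the contractile apparatus of muscle, averaged 51.4 ± 9.72 in the transition rats and 30.0 ± 4.35 in the earlier rats (difference 0.77, adjusted p = 0.0186), but its second probe set went the other way (-0.33, adjusted p = 0.952). Fbxl22, an F-box protein of muscle sarcomeres in mouse, read 198, 114, 295, 206 and 300 in the transition rats and 59.4, 79.7, 88.9, 85.4, 95.3 and 151 in the earlier rats (difference 1.23, standard error 0.24, adjusted p = 0.0179). Its values overlapped only through the rats of 43 h and 38.3 h.

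The promoter of Fbxl22 is printed because it was the single one among the 7 higher genes with a promoter in the RefSeq table that held a CArG box, the element bound by serum response factor at muscle genes. Both strands were searched. The motif occurred in 1.64% of 33469 rat promoters of the same length, 250 bases before to 50 after the start. That share counts each promoter, whereas a gene was counted if any of its promoters held the box. The sequence is from RefSeq on build GRCr8, chr8:75971665-75971964, minus strand, and the capitals mark the box, which begins 204 bases before the start.
Fbxl22: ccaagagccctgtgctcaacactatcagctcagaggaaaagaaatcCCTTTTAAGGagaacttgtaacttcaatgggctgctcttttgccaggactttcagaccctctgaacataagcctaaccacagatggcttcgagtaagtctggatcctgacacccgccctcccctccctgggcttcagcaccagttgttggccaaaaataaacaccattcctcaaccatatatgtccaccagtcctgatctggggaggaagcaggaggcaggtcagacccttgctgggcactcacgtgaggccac
A match is a description of letters and not of binding. Of the 14 basal and myoepithelial genes, 8 had a promoter in the table and 0 of these held the motif in this window.

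All 14 listed basal and myoepithelial genes were measured, and 2 passed the test, both higher (Actg2 and Myh11). Their median difference was 0.46, against 0.02 over all genes, with 10 positive and 4 negative. Over all 11211 genes 6419 were positive and 4792 negative. The other contractile members did not pass but lay close to the threshold for 2 of them. Tpm2, a tropomyosin gene, read between 4148 and 5402 in the transition rats and between 2564 and 4091 in the earlier rats (difference 0.61, adjusted p = 0.0576 in limma), and Myl9, a regulatory myosin light chain, between 1840 and 2309 in the transition rats and between 1130 and 1833 in the earlier rats (difference 0.59, adjusted p = 0.0562). Neither pair of ranges overlapped. Without the rat of 37.1 h both passed, with adjusted p of 0.0254 and 0.00826, and 4 of the 14 genes were called. The keratin members showed another picture. Krt5 differed by 0.03, Krt14 by -0.16 and Krt17 by -0.34, and Tp63, the transcription factor of basal cells, by -0.10, all with an adjusted p of 0.98 or more. Oxtr, the oxytocin receptor through which the myoepithelium is made to contract, had a difference of -1.14 (adjusted p = 0.609). Smooth muscle genes are also expressed by the walls of vessels. The 12 endothelial markers measured all had negative differences (median -0.27, from -0.45 for Vwf to -0.04 for Kdr, none past the threshold), with a summed intensity of 5312 to 6180 in the transition rats and 5992 to 7303 in the earlier rats. The 8 skeletal muscle markers varied widely within both groups, with sums from 2623 to 33223 in the transition rats and from 2614 to 42730 in the earlier rats. At 41.6 h that sum was lowest and Actg2 stood at 1263, and at 57 h it was highest and Actg2 stood at 1864. The part of these other cell types in the contractile result was not tested.

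The other higher calls were 4 genes of different kinds. Esrrg, an orphan nuclear receptor related to the estrogen receptors, read 336, 320, 367, 334 and 269 in the transition rats and 235, 247, 206, 182, 213 and 158 in the earlier rats, with no overlap (difference 0.66, standard error 0.12, adjusted p = 0.0111 in limma). Its second probe set gave 0.48 (adjusted p = 0.542). Nptxr, a receptor for neuronal pentraxins, read between 71.8 and 120 in the transition rats and between 32.3 and 66.1 in the earlier rats (difference 0.88, adjusted p = 0.0317). Arhgap19, a GTPase-activating protein that acts in cell division, read between 31.1 and 50.4 in the transition rats and between 20.9 and 28.6 in the earlier rats (difference 0.68, adjusted p = 0.0315). Ccdc43 passed only with its dimmer probe set (0.47, adjusted p = 0.0179), while the brighter one gave 0.10.

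Mitosis genes lay higher as a group in the transition rats, and none of them passed the test. Of 32 genes listed, 21 passed the intensity filter, and all 21 differences were positive with a median of 1.20, against 0.02 over all genes. At an unadjusted p under 0.05 there were 17 of 21, whereas 427 of all 11211 genes reached it in that direction. Cdk1, the kinase that drives entry into mitosis, read 120, 389, 128, 264 and 121 in the transition rats and 67.0, 30.6, 23.0, 31.5, 264 and 99.0 in the earlier rats (difference 1.63, standard error 0.55). Ccnb2, a cyclin partner of that kinase, read 109, 523, 154, 388 and 151 in the transition rats and 92.7, 34.2, 29.1, 22.1, 267 and 163 in the earlier rats (difference 1.72, adjusted p = 0.513 in limma). Mki67, the proliferation antigen Ki-67, read 162, 500, 159, 311 and 157 in the transition rats and 103, 33.2, 42.8, 32.3, 331 and 111 in the earlier rats. In each of these genes the rats of 43 and 58 h stood above the other 3 transition rats, and the rat of 37.1 h, alone among the earlier rats in 2 of the 3 genes, also stood above those 3. Without that rat the list median was 1.51 and all 21 had an unadjusted p under 0.05, but still none passed after adjustment. The summed intensity of the list ran from 1380 to 4924 in the transition rats and from 466 to 3006 in the earlier rats. DNA replication genes, 26 of 32 measured, differed less, with a median of 0.29 and none past the threshold. Of these, 25 were positive, against 6419 of all 11211 genes, and 2 had an unadjusted p under 0.05. Without the rat of 37.1 h their median was 0.42 and 10 had an unadjusted p under 0.05, again with none past the threshold.

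The promoters of the mitosis genes Cdk1 and Ccnb2 are printed, from among those that held both motifs named next. In 17 of the 21 a promoter was in the RefSeq table, and 12 of these held both TTTGAA, the core letters of the cell cycle homology region, and CCAAT, the box of nuclear factor Y, on either strand. Both occurred together in 7.41% of all 33469 promoters, TTTGAA in 18.3% and CCAAT in 37.5%. These shares count each promoter, whereas a gene was counted if any of its promoters held the motifs. The 2 motifs do not overlap in the sequences below. Cdk1 is at chr20:19265043-19265342 on the plus strand and Ccnb2 at chr8:79981609-79981908 on the minus strand of GRCr8, both 250 bases before to 50 after the RefSeq start, with capitals marking TTTGAA and CCAAT or its reverse complement ATTGG.
Cdk1: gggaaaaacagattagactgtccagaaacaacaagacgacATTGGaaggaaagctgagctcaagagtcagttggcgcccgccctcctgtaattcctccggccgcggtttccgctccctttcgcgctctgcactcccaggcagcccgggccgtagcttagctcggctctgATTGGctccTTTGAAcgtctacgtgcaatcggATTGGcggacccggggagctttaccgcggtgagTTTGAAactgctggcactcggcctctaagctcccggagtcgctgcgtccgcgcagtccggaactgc
Ccnb2: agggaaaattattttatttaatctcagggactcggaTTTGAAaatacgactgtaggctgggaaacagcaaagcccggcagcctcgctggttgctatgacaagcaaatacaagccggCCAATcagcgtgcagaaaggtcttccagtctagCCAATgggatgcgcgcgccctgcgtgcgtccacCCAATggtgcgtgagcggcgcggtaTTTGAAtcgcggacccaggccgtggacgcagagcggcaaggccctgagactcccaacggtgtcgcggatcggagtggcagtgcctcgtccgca
Each promoter holds TTTGAA at 2 places and CCAAT at 3. In Cdk1 the TTTGAA nearest the start begins 16 bases before it, and in Ccnb2 43 bases before it.

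**Figure D3:**
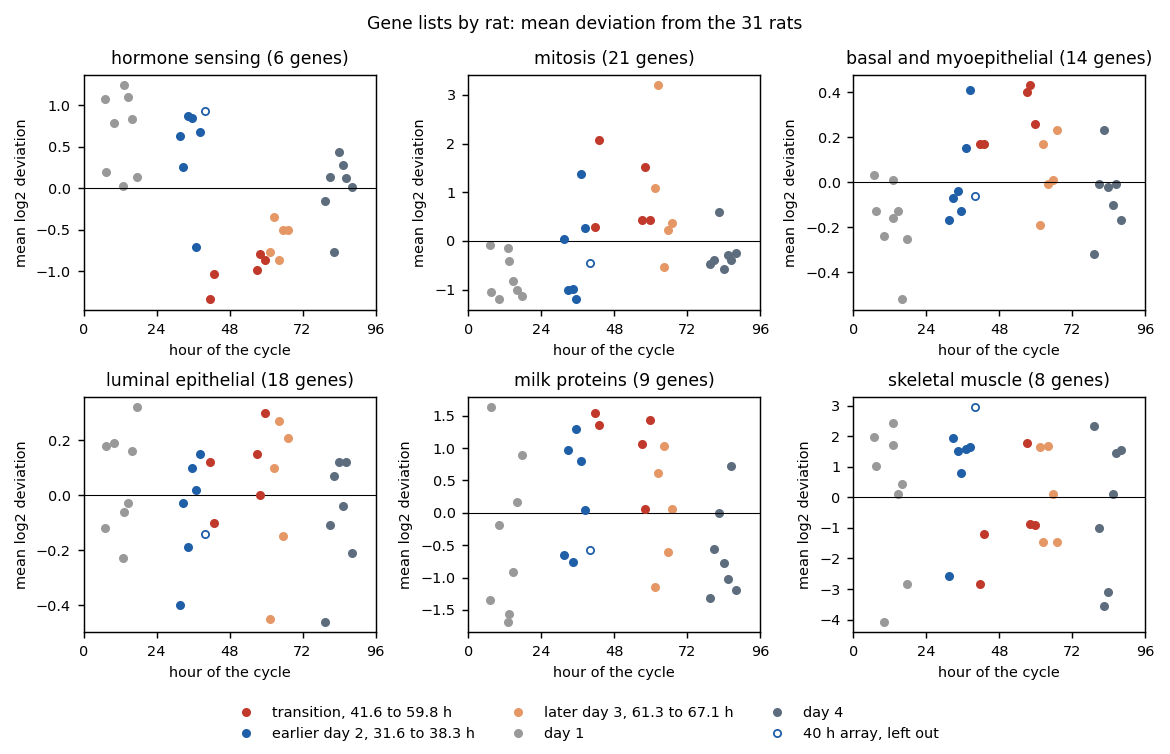
Mean deviation in log2 intensity of 6 gene lists in each rat against hour of the cycle, where 0 is the mean of the 31 rats and each point is 1 rat. Hormone-sensing genes lie between -1.34 and -0.79 in the transition rats, mitosis genes between 0.28 and 2.07, and milk protein and skeletal muscle genes spread over the whole range in several groups.

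Other lists gave few or no calls. Among 18 luminal epithelial genes Prom1 was the single call, and the median was 0.24. Krt8 differed by 0.41 and Krt18 by 0.36, with an adjusted p of 0.498 for both. The 9 milk protein genes had a median of 0.42 and none passed. Wap, whey acidic protein, read 18198, 10734, 9217, 1828 and 15698 in the transition rats and 429, 8005, 525, 9399, 2955 and 908 in the earlier rats. In the EGF family, 9 genes measured, betacellulin (Btc), another EGF receptor ligand, read between 17.0 and 30.4 in the transition rats and between 27.2 and 71.8 in the earlier rats (difference -1.12, adjusted p = 0.173 in limma), and the list median was 0.03. Of 13 matrix proteases and inhibitors all differences were negative, against 4792 of all 11211 genes, with a median of -0.25 and none past the threshold. Of the 13, 7 followed clock hour on days 1 and 4, against 1011 of all genes. Thbs2 was the single call among 20 fibroblast and collagen genes (median -0.11). Lymphocyte markers, 9 measured, had a median of 0.38 that came with the rat of 57 h, whose summed level was 3805 against a transition median of 851 and 714 to 1289 in the earlier rats. Macrophage (13 genes, median -0.11), adipocyte (13 genes, -0.20), lipogenesis (19 genes, 0.28), cholesterol synthesis (14 genes, 0.17) and interferon-stimulated genes (17 genes, 0.24) had no call.

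Clock genes were examined because the groups differ in hour of the day. The earlier rats were killed at clock hours of 7.6 to 14.3, and the transition rats at 17.6 and 19 on day 2 and at 9, 10 and 11.8 on day 3. On days 1 and 4, 1781 of the 21068 probe sets changed with clock hour at an unadjusted p under 0.05 and 53 after adjustment. The clock list driven through E-box and D-box elements had 13 measured genes and that of the Bmal1 arm 5, and 13 and 4 of them were set aside. Per2, a repressor of the clock, read 1019 and 1264 at 41.6 and 43 h, 95.0, 119 and 94.7 at 57, 58 and 59.8 h, and 151, 113, 138, 160, 294 and 480 in the earlier rats. Bmal1, a core activator, ran the other way with 13.4 and 20.5, then 263, 153 and 158 in the transition rats, and 239, 219, 152, 75.5, 26.2 and 47.5 in the earlier rats. The 2 parts of the transition thus lay on opposite sides of most earlier rats, and over both parts the differences of Per1 (0.42), Per2 (0.46), Dbp (0.21), Nr1d1 (-0.60), Bmal1 (-0.43) and Npas2 (-0.71) all had an adjusted p of 0.995 or 0.996 in limma. With the 57 to 59.8 h rats alone, whose clock hours lie within those of the earlier rats, 11 probe sets were higher and 21 lower, and 20 of the 35 calls were kept. With the rats of 41.6 and 43 h alone, the counts were 15 and 12, and 8 of the 35 were kept. All 35 kept their direction in both, each of which used a part of the rats that made the calls.

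**Figure D4:**
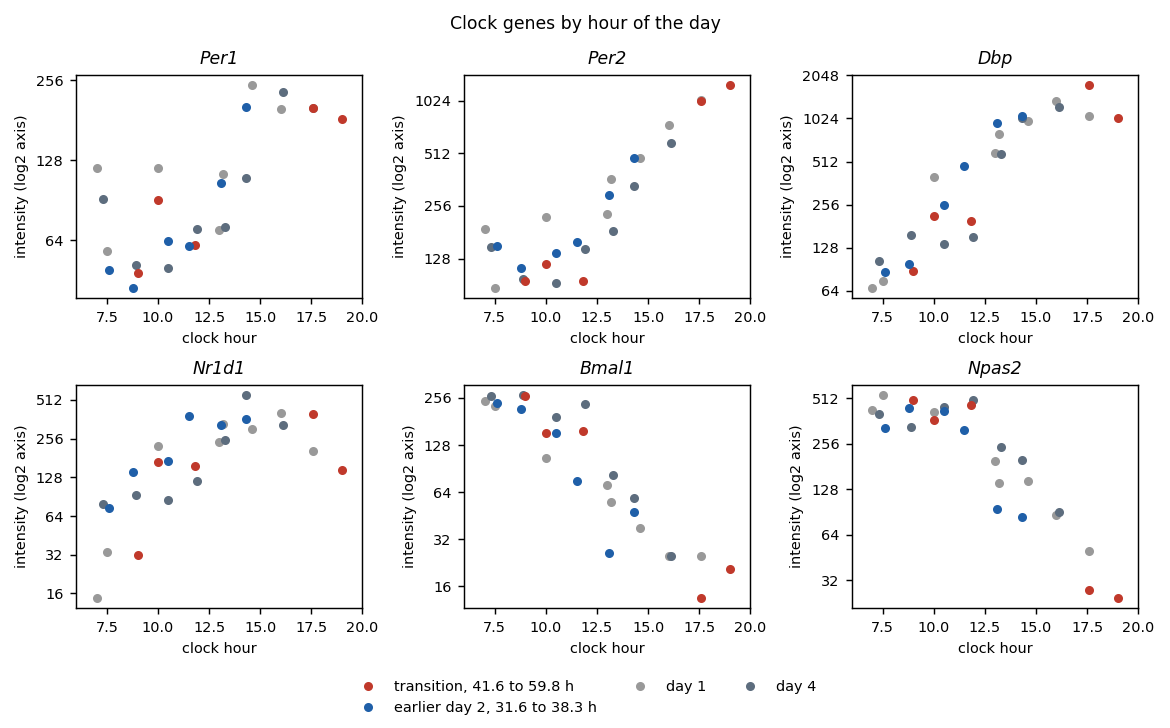
Intensity on a log2 axis of 6 clock genes against clock hour in the transition, earlier day 2, day 1 and day 4 rats, where each point is 1 rat. The 2 transition rats of 17.6 and 19 h and the 3 of 9, 10 and 11.8 h lie at opposite ends for Per2, Dbp, Bmal1 and Npas2.

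The same genes were examined again in rats outside both groups. These rats were also in the main fit and shared in its estimate of spread, so the fits are not independent. Later day 3 (5 rats) was set against day 1 (8 rats) in a separate limma fit over the 20 rats of days 1 and 4 and later day 3, with clock hour as a covariate. In that fit 7 probe sets were higher, 0.0332% of those tested, and 36 were lower, 0.171%. Of the 26 probe sets that were lower in the transition, all 26 were negative there too, 24 had an unadjusted p under 0.05, and 19 were called lower. Their median was -1.55 on later day 3 and -1.48 in the transition. Over all 11211 genes the median in the later day 3 fit was 0.01. The shares of all probe sets with either sign or an unadjusted p under 0.05 there were not counted. Of the 9 higher probe sets 8 were positive, and Csap1 and Actg2 were called. Pgr had 57.8 ± 10.2 on later day 3 (SD, n = 5) and 279 ± 117 on day 1 (SD, n = 8), a difference of -2.20 (standard error 0.34, adjusted p = 0.00779). Actg2 had 1006 ± 231 on later day 3 and 485 ± 114 on day 1 (difference 1.19, adjusted p = 0.00914). Il18, with the smallest adjusted p of the named genes in the transition, had a difference of -0.76 on later day 3 (adjusted p = 0.0779). Mgp (-0.14, adjusted p = 0.558), Cacna2d3 (-0.09, adjusted p = 0.749) and Ccdc43 (-0.01, adjusted p = 0.984) were near 0 in that fit, and whether they differ between both sets of rats was not tested. Il17b was called higher on later day 3 (2.10, adjusted p = 0.0302), and so was Myl9 (0.78, adjusted p = 0.0121). These counts also moved with single rats. Without the day 1 rat of 13 h there were 44 higher and 100 lower, and without the rat of 64.2 h 70 and 90. Omission of 65.6, 79.3 or 82.5 h gave 21, 16 and 13 higher, and omission of 14.6 or 16 h gave 4. The lower count was 15, 18 and 56 on omission of 61.3, 16 and 17.6 h.

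**Figure D5:**
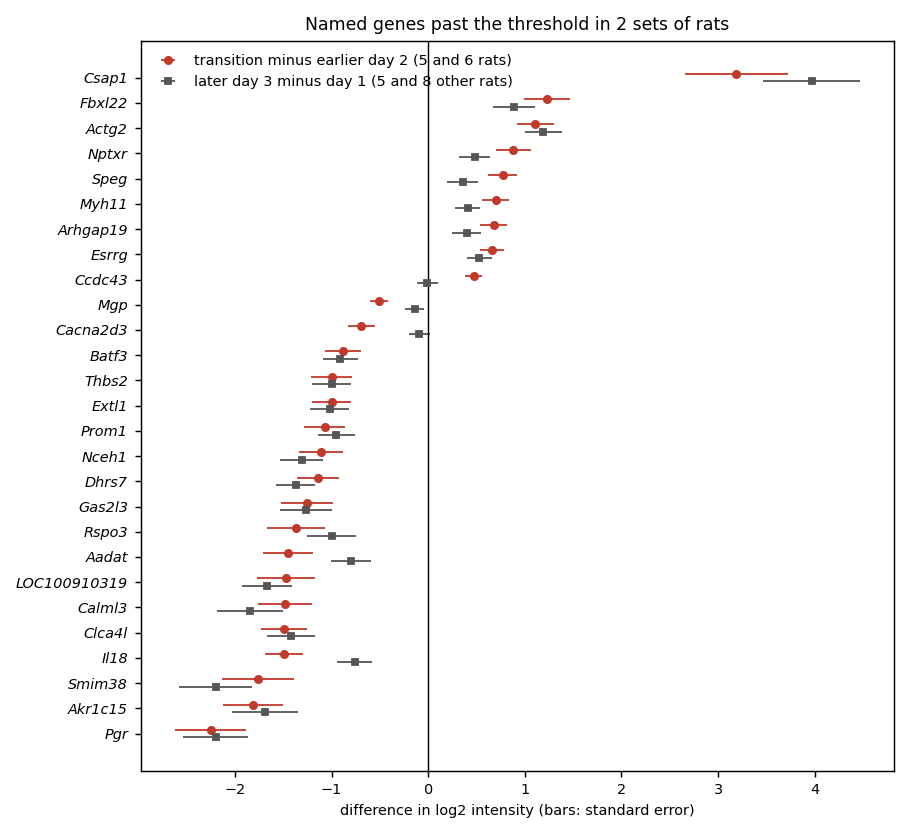
Difference in log2 intensity with its standard error for the 27 named genes past the threshold. Circles are transition minus earlier day 2. Squares are later day 3 minus day 1 in other rats, which also entered the spread of the first fit. Most genes lie on the same side of 0 in both, while Ccdc43, Mgp and Cacna2d3 are close to 0 in the second.

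By day 4 the lower genes were mixed. Of the 26 lower probe sets, the mean of the 7 day 4 rats lay on the transition side of the midpoint for 13, that of later day 3 for 26 and that of day 1 for 1. The midpoint was set by the rats that made the calls, and the shares of all probe sets on either side were not counted. The counts in this paragraph therefore describe the calls only. Among single rats, the day 4 rat of 82.5 h was on the transition side for 24 of the 26, against 7 to 16 in the other 6 day 4 rats, and the day 1 rat of 13 h for 12 against 1 to 5 in the other 7. Pgr on day 4 ranged between 60.2 and 238 around a median of 127. For the 9 higher probe sets, later day 3 lay on the transition side for 6 and day 4 for 3.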

How the data were processed

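Total RNA of mammary glands was measured on 1 Affymetrix Rat 230 2.0 array per rat. The intensity values were made by the authors with GC-RMA in GeneSpring, which corrects background and normalizes the arrays together (no version is stated). They are deposited on a linear scale from 2.22 to 37317. After removal of 57 control probe sets, those that reached 10 on each of the 31 arrays were kept and log2 values were fitted with lmFit and eBayes of limma. Symbols came from the platform annotation, updated through Entrez identifiers: 15568 probe sets had 1 symbol, 353 several and 5147 none. In the lists a gene was represented by its probe set of highest mean log2 value. A probe set was set aside as following clock hour if its slope over the 15 arrays of days 1 and 4, with day as a factor, had an unadjusted p under 0.05.

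Genes were named if they were among the 12 largest differences in either direction past the threshold and not set aside, if they were list members past it, or if they were Pgr, Greb1, Csap1, Il17b or 1 of 6 clock genes, with examples from the lists. The members and lists were chosen with earlier results of these data known. The fit was also run on simulated data with independent normal noise and no effect of hour or of single rats. That run cannot speak to such effects in these rats. Precision is limited by the number of arrays, and slides or scans were not given. Alternatives covered the filter, normalization, arrays in the fit, clock hour, variance model, false discovery rate and each array left out. R 4.3.3, limma 3.58.1, Python 3.11.15, numpy 2.4.6, pandas 2.3.3 and matplotlib 3.10.9 were used. Promoters are those of RefSeq on GRCr8.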

Additional observations from a re-analysis of the deposited data

Results flagged for a closer look

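Values far from the rest of their group were found for 7 of the 60 pairs of a named gene and a group, on the log2 scale with Dixon's criterion at the 95% level, which chance alone passes in about 1 of 20 groups. The rat of 37.1 h accounts for 5 of the 7. It read 54.3 for Pgr, with 241 to 347 in the other earlier day 2 rats, 448 for Akr1c15 with 936 to 1436, 39.3 for Gas2l3 with 89.8 to 135, 2430 for Dhrs7 with 5166 to 6660, and 21.1 for Greb1 with 84.6 to 180. The rat of 38.3 h accounts for the other 2, both on the high side, with 96.8 for Rspo3 against 19.3 to 32.1 in the other earlier day 2 rats and 211 for Il17b against 68.9 to 102.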

How the results depend on the processing

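All 35 probe sets kept their direction under every alternative in which they were tested. The alternatives used the rats that made the calls, so this is no separate support. With a filter at an intensity of 50 there were 4 higher and 13 lower probe sets, and the same after the clock check. With the 11 arrays alone there were 0 and 0. With the rats of 41.6 and 43 h alone there were 15 higher and 12 lower, and 11 lower after the clock check. With array weights there were 21 higher, and 19 after the clock check. At an adjusted p under 0.25 there were 42 higher and 64 lower, and 40 and 63 after the clock check. Leaving out 1 rat gave 2 to 20 higher and 14 to 45 lower probe sets, and 1 to 18 and 14 to 44 after the clock check. For later day 3 against day 1, no clock hour covariate gave 18 higher and 61 lower, and leaving out 1 rat gave 4 to 70 and 15 to 100.

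The clock genes turned direction without passing. With clock hour as a covariate the differences were -0.02 for Per1, -0.33 for Per2, -0.81 for Dbp, 0.50 for Bmal1 and 0.13 for Npas2. With the 57 to 59.8 h rats alone they were -0.21 for Per1, -0.93 for Per2, -1.04 for Dbp, 0.96 for Bmal1 and 0.92 for Npas2, and with those of 41.6 and 43 h alone Nr1d1 had 0.21. Leaving out 1 rat gave -0.10 to 0.84 for Per2, -0.36 to 0.73 for Dbp and -0.91 to 0.16 for Bmal1. The cause was not tested. No paired analysis was possible because no label pairs the rats. With 1 rat per hour, effects of hour within a group are part of the spread.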

Other observations

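The array of 40 h, which the authors discarded as faulty, was in no comparison, and its values are readings of that array only. Its Pgr intensity was 270, Greb1 195, Areg 3508, Il18 869 and Dhrs7 6457, each within the range of the earlier day 2 rats or, for Greb1, above it at 180. Csap1 read 64.7 there, below the lowest earlier day 2 rat at 156. Skeletal muscle markers were high on it, with 20217 for Acta1 against 252 to 13094 in the earlier day 2 rats.

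Without the rat of 37.1 h, genes outside the lists also passed the limma threshold, and they were named after their values were seen. Cited4, a transcriptional co-regulator, was lower in the transition (-2.12, adjusted p = 0.00727), as were Zbtb40 (-1.92, adjusted p = 0.00756) and Tnfsf10, the death receptor ligand TRAIL (-1.0, adjusted p = 0.0117). Spdef, an epithelial transcription factor, was higher (0.89, adjusted p = 0.02), and so was Tet1, an enzyme that oxidizes methylated cytosine (0.57, adjusted p = 0.0141). With all rats their adjusted p ran between 0.0767 for Zbtb40 and 0.373 for Spdef.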
